A study of Mus musculus with 2 samples.

Results

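Conventional CD4 T cells were examined in 2 pancreatic tumours of mice profiled by single-cell RNA sequencing. Members were chosen cell by cell on measured transcript counts. A member held at least 1 unique molecular identifier (UMI, 1 counted transcript) of Cd3e, Cd3d or Cd3g and at least 1 of Cd4 or Cd40lg. It held none of Cd8a, Cd8b1 or Foxp3, fewer than 2 UMIs of the gamma-delta and interleukin-17 genes Il17a, Il23r and Cd163l1, and at most 1 of the B cell gene Cd79a. The macrophage genes C1qa, C1qb and C1qc had to stay under 0.05% of its UMIs, and the granulocyte genes S100a8 and S100a9 under 0.4%. Of 24160 kept cells, 254 were members. They were 107 of the 11713 cells kept from the library labelled KPC-shV and 147 of the 12447 kept from that labelled KPC-shZEB1. Genes named in the rule chose the members, so their levels are a description.

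Both tumours were orthotopic allografts of KPC, a mouse pancreatic cancer line, placed in the pancreas of C57BL/6J mice. KPC-shV cells had received a control hairpin by lentivirus and KPC-shZEB1 cells a hairpin against Zeb1, a transcription factor of epithelial-mesenchymal transition. Each group was 1 mouse and 1 library, so mouse, tumour, library and hairpin cannot be told apart, and no test between the groups was possible. By the study's account the sequenced tumours came from mice treated with gemcitabine, a nucleoside chemotherapy, and the labels do not mention this treatment. T cells come from the host and do not carry the hairpin. The study's methods describe mice a few weeks old and of both sexes, and the sex and exact age of the sequenced mice were not given in the sources used here.

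A CD4 T cell recognises peptides on MHC class II through its T cell receptor and acts mainly by helping other cells. It does so with membrane ligands such as CD40 ligand, which licenses dendritic cells and B cells, and with secreted cytokines such as interferon gamma, GM-CSF, IL-4, IL-21 and IL-2. In tumours this helper compartment lies beside Foxp3-positive regulatory T cells, which also derive from the CD4 lineage and restrain immune responses.

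Values are given for the library labelled KPC-shV first and the library labelled KPC-shZEB1 second. Levels are UMIs of a gene per 1000000 UMIs summed over a set of cells (CPM). A ratio between libraries divides the second value by the first. Brackets hold exact 95% intervals, which cover counting error only, and cells of 1 library are not replicates. The median member held 5524 and 4779 UMIs and 2285 and 2262 genes, with 6 and 5 UMIs of the CD3 genes. In tumour-gene cells, those with at least 10 UMIs of Epcam, Krt8, Krt18 and Krt19, Zeb1 stood at 117 CPM (106 to 130) and 160 CPM (142 to 180), which is not the direction of the label. These 304 and 195 cells were chosen by epithelial genes, so tumour cells low in those genes were left out. Zeb1 is a factor of epithelial-mesenchymal transition, so this choice may not be independent of its level. The counts therefore do not show the knockdown and cannot test it over all tumour cells. The study measured the knockdown separately in KPC cells, besides staining tumours for Zeb1. Whether RNA of other cells added to the values in tumour-gene cells was not tested. Whether unspliced reads were counted was not stated. Members themselves held Zeb1 at 741 and 701 CPM.

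The gate let in barcodes with few transcripts of T cell receptor signalling for their depth. A list of 16 genes of T cell receptor signalling that the rule did not use, among them Trac and Lck, held a median 0.0041% and 0.013% of UMIs in 11 and 22 members. In these barcodes 1 CD3 UMI was typical, with exactly 1 in 9 of 11 and 17 of 22. Genes of tumour cells (Epcam and keratins) or of fibroblasts (collagens and Dcn) reached 0.1% of UMIs in 10 of 11 and 20 of 22 of them. They were deep, with a median of 44520 and 33452 UMIs, and so held 42.6% and 49% of all member UMIs. Among the other members, 96 and 125 cells, the list held at least 0.2% of UMIs. Those genes reached 0.1% in 9 of those 96 and 14 of those 125. The member just under the 0.2% minimum had 0.12% and 0.154%, and the member just above it 0.208% and 0.308%. This minimum was chosen once the values had been seen, and the 96 and 125 cells are called T receptor gene members below. Because the minimum is a share of UMIs, a deep barcode of a T cell and another cell can fall under it. The nearest below it, of 37487 and 14901 UMIs, still held T receptor transcripts. Whether any of the 11 and 22 were T cells or doublets was not tested.

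**Figure D1:**
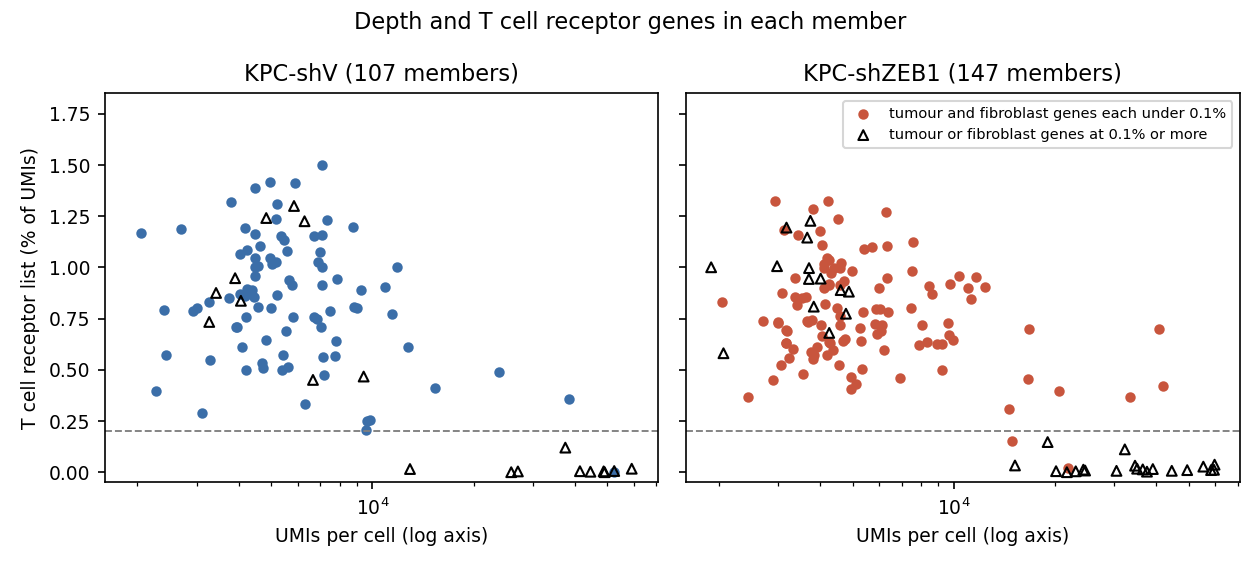
Each point is 1 member, with its UMIs on a log axis and the share of its UMIs in the 16 T cell receptor signalling genes, in percent, in 1 panel per library. Triangles are members with either the tumour or the fibroblast genes at 0.1% of UMIs or more. The 11 and 22 members under the line at 0.2% sit far to the right, with medians of 44520 and 33452 UMIs, and the 96 and 125 others lie above it at medians of 5189 and 4528 UMIs.

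The limit on the C1q genes met the libraries unequally. C1qa, C1qb and C1qc encode the complement component C1q of macrophages. Their summed share of UMIs had a median of 0.0194% and 0.0585% in CD3-positive cells with the T receptor genes, 0.0222% and 0.0633% in B cells, and 0.0258% and 0.0695% in granulocytes. It was thus higher in the library labelled KPC-shZEB1 in all 3 cell types, none of which makes C1q as a lineage gene. The limit of 0.05% was reached by 8.35% and 61.3% of those T cells, and by 11% and 64.2% of B cells. As a step of the rule it removed 22 and 300 candidates. In the library labelled KPC-shZEB1 the member nearest the limit had 0.0498% and the nearest excluded cell 0.0502%, and 73 of 322 candidates lay between 0.04% and 0.06%. A wider gate with a C1q limit of 0.2% and the T receptor minimum, chosen in the same way, held 105 and 322 cells.

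**Figure D2:**
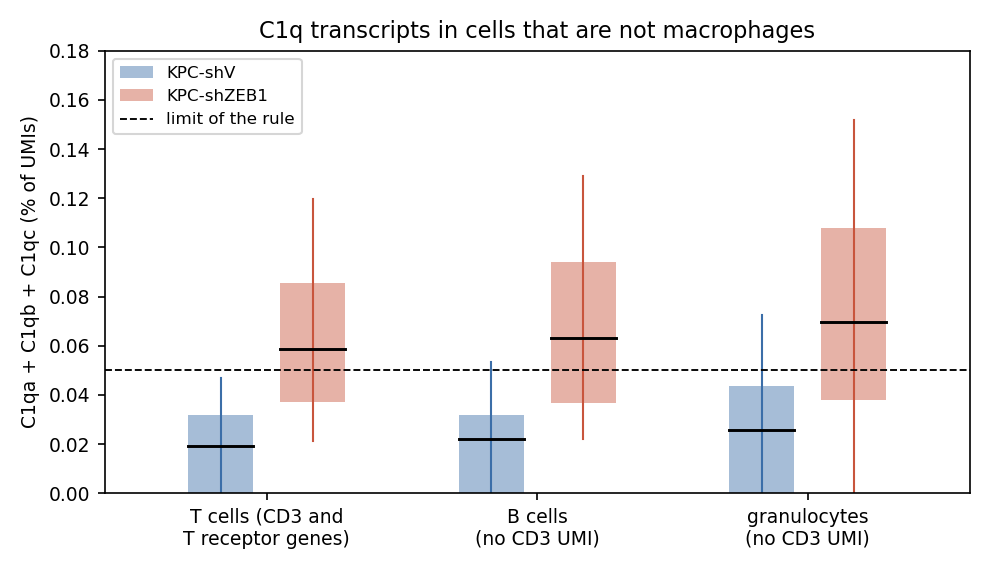
The vertical axis is the share of UMIs from C1qa, C1qb and C1qc, in percent, in T cells, B cells and granulocytes of each library. Boxes span the middle 50% of cells with a black line at the median, thin lines span the middle 80%, and the dashed line is the 0.05% limit. All 3 cell types of the library labelled KPC-shZEB1 have medians above the limit, at 0.0585% to 0.0695%, and all 3 of the library labelled KPC-shV medians below it, at 0.0194% to 0.0258%.

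The abundance of members between libraries depended on this limit. Members were 0.914% and 1.18% of kept cells, a ratio of 1.29 (1.00 to 1.67). They were 10.5% and 4.89% of CD3-positive cells, a ratio of 0.467 (0.362 to 0.605). The granulocyte gate used the same C1q limit, which 21.7% and 65.5% of granulocytes reached, and held 3652 and 725 cells. The share outside granulocytes did not use that gate but left out a larger set of granulocytes, which kept 6205 and 9670 cells. Of these cells members were 1.72% and 1.52%, a ratio of 0.882 (0.683 to 1.14). Under the wider gate the ratio of shares of kept cells was 2.89 (2.31 to 3.63). The share of CD3-positive cells with T receptor genes was then 23.1% and 23.9%, a ratio of 1.04 (0.829 to 1.31). As a share of T cells, CD4 T cells of the wider gate thus differed by less than counting error, while the rule as given made them fewer in the library labelled KPC-shZEB1.

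The T receptor gene members expressed the marker genes named for these cells. Cd4, the coreceptor for MHC class II, was at 305 and 288 CPM, and Cd40lg, CD40 ligand, at 175 and 188 CPM. Both chose the cells, and in the full set of members 24 and 33 cells held both genes, 63 and 78 Cd4 alone, and 20 and 36 Cd40lg alone. Tnfsf8, the ligand of CD30, was not used by the rule. It was at 677 CPM (613 to 746) and 596 CPM (544 to 653) and was read in 45 of 96 and 59 of 125 cells. B cells were gated with the same 0.05% C1q limit, which 11% and 64.2% of B cells reached, leaving 191 and 313 cells. They had Tnfsf8 in 0.524% and 2.88% of cells, at median depths of 4066 and 3673 UMIs. These B cells served as a guide to free RNA. Whether their reads were free RNA or their own was not tested. Maf, a transcription factor of IL-10 and IL-21 production, was at 417 and 274 CPM and in 57.3% and 52.8% of cells, against 9.95% and 18.2% of B cells. Slamf1, a self-binding receptor of activated lymphocytes, was at 95.6 and 102 CPM and in 29.2% and 32% of cells, against 4.71% and 3.83% of B cells. Csf2 was in only 9 and 6 cells and is described with the cytokines below. The full set of members had lower levels of all of these, with Tnfsf8 at 389 and 322 CPM and Maf at 254 and 169 CPM.

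Genes of membrane ligands were read in many of the T receptor gene members. Tnfsf11, known as RANK ligand, which acts on dendritic cells, was at 391 CPM (342 to 444) and 316 CPM (278 to 358) and was read in 44.8% and 44% of T receptor gene members. In B cells it was read in 1.57% and 0.958%. With every cell thinned to 1000 UMIs, Tnfsf8 was read in 27.1% and 27.2% of these members and Tnfsf11 in 21.9% and 17.6%. Ltb, lymphotoxin beta, which shapes lymphoid tissue, was at 303 and 254 CPM in 67 and 79 cells. The part of free RNA in these Ltb reads was not tested.

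Tnfsf8 and Tnfsf11 were often read in the same cells. Tnfsf11 was read in 30 of 45 and 41 of 59 cells with Tnfsf8, but in 13 of 51 and 14 of 66 cells without it. Icos, a costimulatory receptor of activated CD4 T cells, was read in 82.3% and 83.2% of cells and was at 850 and 803 CPM. Cells with Tnfsf8 were deeper, at medians of 5868 and 4779 UMIs against 4581 and 4260 UMIs, and the part of depth in the pairing was not tested.

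**Figure D3:**
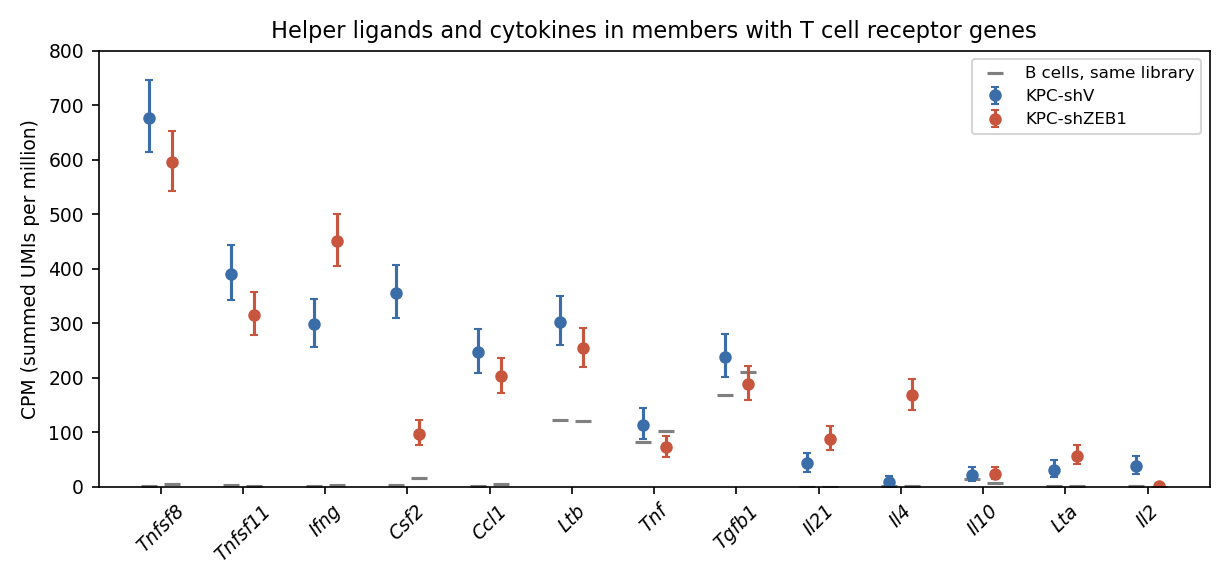
Points are levels in CPM of helper ligands and cytokines in the T receptor gene members of each library, with lines for the exact 95% interval of the summed UMIs, and grey dashes are the levels in B cells of the same library. Tnfsf8 (677 and 596 CPM) and Tnfsf11 (391 and 316 CPM) lie close together between the libraries, while Csf2 (356 and 97.7 CPM) and Il4 (8.24 and 168 CPM) lie apart.

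Each secreted cytokine was read in fewer of the T receptor gene members than Tnfsf8, Tnfsf11 or Ltb. Of 7 cytokine genes, Ifng, Csf2, Il4, Il21, Il2, Il10 and Il13, none was read in 53 of 96 and 80 of 125 T receptor gene members. Ifng, interferon gamma, was read in 28.1% and 28% of cells. Its level of 298 CPM (256 to 345) and 452 CPM (406 to 501) leaned on single cells, since 1 cell of 41795 UMIs in the library labelled KPC-shZEB1 held 158 of 356 UMIs. Under the wider gate the order turned, with Ifng at 370 and 292 CPM. Il21, a cytokine that helps B cells and CD8 T cells, was at 42.9 and 87.6 CPM in 9 and 12 cells. Maf was read in 8 of those 9 and 10 of those 12, against 47 of 87 and 56 of 113 cells without Il21. Il10 was at 21.4 and 22.8 CPM in 9 and 6 cells. Tnf, tumour necrosis factor, was at 114 and 72.3 CPM in 27 and 31 cells, near its levels of 81.9 and 102 CPM in B cells. Whether those B cell levels of Tnf are free RNA or RNA of the B cells was not tested. Il2 was 23 UMIs in 1 cell of the library labelled KPC-shV and 1 UMI in the library labelled KPC-shZEB1.

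Csf2 encodes GM-CSF, a growth factor of granulocytes and macrophages. In the T receptor gene members it was at 356 CPM (310 to 407) and 97.7 CPM (77.1 to 122), a ratio of 0.274 (0.209 to 0.358). Csf2 was read in 9.38% (4.38 to 17) and 4.8% (1.78 to 10.2) of cells, and these intervals overlap. The 3 richest cells held 80.6% and 94.8% of its UMIs, and 1 cell in the library labelled KPC-shV held 114 of 216. That cell also held 32 UMIs of Ifng, 16 of Tnfsf11 and 40 of Ccl1, a chemokine that acts on CCR8. Ifng was read in 6 of 9 and 6 of 6 cells with Csf2, against 21 of 87 and 29 of 119 cells without it. The cells with Csf2 had medians of 7310 and 8246 UMIs and those without it 5167 and 4359 UMIs. A further 30 Csf2 UMIs in the full set of the library labelled KPC-shV came from a barcode with 129 UMIs of Krt8, 65 of Krt18 and 49 of Epcam and no UMI of the T receptor list.

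Il4, the defining cytokine of Th2 help, was at 8.24 CPM (2.68 to 19.2) and 168 CPM (140 to 199) in the T receptor gene members. It was read in 5 and 4 cells. In the library labelled KPC-shZEB1, 2 cells held 69 and 52 of the 132 UMIs. These cells carried 8 and 12 UMIs of Zbtb16, the transcription factor PLZF of natural killer T cells, 3 and 7 of Klrk1, an activating receptor of killer cells, 11 and 8 of Cd40lg, and none of Cd4. They entered through Cd40lg. The next cell, with 10 UMIs of Il4, held 6 of Il13, 5 of Gata3 and 30 of Tnfsf8, 2 of Cd4 and none of Zbtb16. The list of 5 natural killer T genes summed to 262 and 271 CPM over the T receptor gene members, with 1 of the 5 at 0 in each library. That gene was Trav11, the invariant alpha segment, but all 163 listed variable segments that the counts hold gave only 16 and 34 UMIs, so its absence carries little. Whether the pair are natural killer T cells was not tested.

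Gzma, granzyme A of cytotoxic granules, was likewise held by few cells, at 557 and 251 CPM in 8 and 12 cells. The richest cell held 244 of 338 and 140 of 198 UMIs. Both carried 2 UMIs of Cd4 and UMIs of the killer-cell genes Nkg7, Klrd1 and Klre1.

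Within each library the T receptor gene members spread between a recirculating and a tissue pattern. Ccr7, a chemokine receptor that guides T cells into lymph nodes, was read in 22 of 96 cells (22.9%) and 40 of 125 cells (32%). The cells with Ccr7 had median depths of 5091 and 4816 UMIs and those without it 5276 and 4416 UMIs. Tcf7, the factor TCF-1 of naive and memory cells, was read in 18 of 22 and 27 of 40 cells with Ccr7 but in 28 of 74 and 35 of 85 of the rest. Lef1, its relative, followed with 63.6% and 75% against 43.2% and 41.2%. Cxcr6, a chemokine receptor of tissue-resident T cells, went the other way, in 7 of 22 and 5 of 40 against 42 of 74 and 37 of 85 cells. Tbx21, the Th1 factor T-bet, was read in 6 of 22 and 3 of 40 against 31 of 74 and 28 of 85 cells. Maf was likewise less often read with Ccr7, in 8 of 22 and 13 of 40 against 47 of 74 and 53 of 85 cells. So was Ikzf2, the factor Helios, in 10 of 22 and 14 of 40 against 46 of 74 and 52 of 85 cells. Ctla4 was read in 13 of 22 and 20 of 40 against 60 of 74 and 58 of 85 cells. Whether regulatory cells without a Foxp3 UMI had a part in this split was not tested. Icos was common in both, at 63.6% and 77.5% with Ccr7 and 87.8% and 85.9% without. Tnfsf8 was read in 36.4% and 47.5% of cells with Ccr7 and in 50% and 47.1% of those without. Splitting the cells by Ccr7 was chosen after the values were seen.

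**Figure D4:**
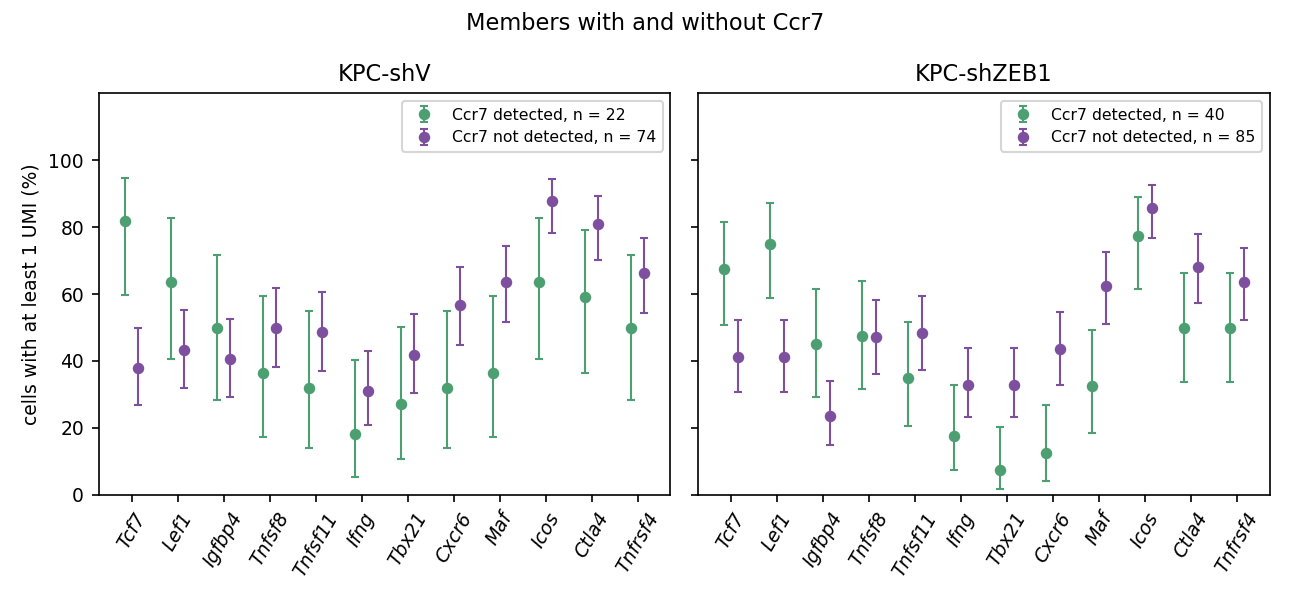
Points are the percent of T receptor gene members in which each gene was read, among cells with and without a UMI of Ccr7, in 1 panel per library, with lines for exact 95% intervals. Tcf7 is higher in cells with Ccr7 (18 of 22 against 28 of 74, and 27 of 40 against 35 of 85) and Cxcr6 higher in the rest (42 of 74 against 7 of 22, and 37 of 85 against 5 of 40), in both libraries.

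Next, members were compared with Foxp3-positive T cells. The same rule with at least 1 Foxp3 UMI found 9 and 13 cells. The wider gate gave firmer values, with 29 and 75 Foxp3-positive cells against 105 and 322 CD4 T cells. Where the wider gate is used below, members are these 105 and 322 cells, of which the rule as given left out 9 and 197. A Foxp3-positive cell entered without a Cd4 or Cd40lg UMI, and 9 of 29 and 30 of 75 held one. A gene counted as changed where its summed UMIs reached 50 and it was at least 2-fold apart, in the same direction, in both libraries. By the rule as given, 886 of 7598 genes (11.7%) were higher in members and 213 (2.80%) lower. Under the wider gate 176 of 7345 genes (2.40%) were higher and 139 (1.89%) lower. The 10 genes highest over Foxp3-positive cells by the rule as given included the gut hormone gene Pyy and the stromal gene Sfrp2. Barcodes under the T receptor minimum held 220 of 221 and 113 of 114 Pyy UMIs and 67 of 71 and 120 of 122 Sfrp2 UMIs. St8sia1, a ganglioside-forming enzyme, was also among the 10, and all 55 of its UMIs and 83 of 85 lay in the T receptor gene members.

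Under the wider gate, part of the helper list was higher in members than in Foxp3-positive T cells. Of 20 measured genes of the helper cytokine and ligand list, 7 were at least 2-fold higher in members in both libraries and 1 at least 2-fold lower, with a median log2 ratio of 0.34 (0.28 with genes at 0 set to 3 UMIs) against 0 over all genes. Il10, at 19.9 and 14.8 CPM against 122 and 77.1 CPM, was the lower one. Tnfsf11 stood at 432 and 384 CPM in members and 12.8 and 64.9 CPM in Foxp3-positive cells, ratios of 33.7 (9.25 to 280) and 5.92 (4.15 to 8.72). Ifng was at 370 and 292 CPM in members and at 0 and 10.1 CPM in Foxp3-positive cells, at least 19.2-fold and 28.8-fold (12.3 to 89) higher. Il21 was not read in any Foxp3-positive cell, so members were at least 2.86-fold and 15.8-fold higher. Tnfsf8 was 7.76-fold (4.66 to 14) higher in the library labelled KPC-shV but 1.79-fold (1.51 to 2.12) in the library labelled KPC-shZEB1, where Foxp3-positive cells held it at 329 CPM.

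The Th1 list leaned towards the members under the wider gate, where 9 of 12 measured genes were higher in members in both libraries, 4 of them at least 2-fold, and 2 were lower. Its median log2 ratio was 0.51 there, 0.56 in the T receptor gene members and 0.02 by the rule as given, where 6 of 11 genes were higher and 2 lower. Hopx, a homeodomain cofactor of T cells, went against the list in all 3 sets and stood at 113 and 72.6 CPM in members against 417 and 576 CPM under the wider gate. Il12rb2, a chain of the IL-12 receptor, was at 315 and 321 CPM against 57.7 and 14.2 CPM, and Tbx21 was 3.42-fold (1.51 to 9.57) and 3.4-fold (1.97 to 6.33) higher. Outside the list, Cxcr6 was at 246 and 150 CPM against 70.5 and 16.2 CPM. Tcf7 was 7.63-fold (2.91 to 28.4) and 4.65-fold (3.03 to 7.51) higher, and Satb1, a chromatin organiser repressed in regulatory T cells, 3.38-fold (2.62 to 4.43) and 2.38-fold (2.13 to 2.66).

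The regulatory list was lower in members for 16 of 17 measured genes, at least 2-fold in 10, with a median log2 ratio of -1.43. The comparison cells were chosen by Foxp3, a regulatory gene, so this direction is a check of the gate. Ikzf2, the factor Helios, was at 1203 and 994 CPM in members and 3884 and 4136 CPM in Foxp3-positive cells. Lrrc32, the TGF-beta docking receptor GARP, was at 9.17 and 9.01 CPM against 109 and 81.1 CPM. Il2ra, the IL-2 receptor alpha chain, was at 199 and 219 CPM against 961 and 996 CPM. Areg, a tissue-repair growth factor, was at 183 and 127 CPM against 936 and 834 CPM, and Il1rl1, the IL-33 receptor, at 90.2 and 62.5 CPM against 429 and 471 CPM. Maf and Icos differed less, at 0.866-fold (0.669 to 1.13) and 0.707-fold (0.603 to 0.832) for Maf and 0.664-fold (0.566 to 0.783) and 0.808-fold (0.727 to 0.9) for Icos.

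A Foxp3 count of 0 does not exclude a regulatory cell at this depth. Among the T receptor gene members 62 of 96 and 61 of 125 held at least 2 UMIs of Ikzf2 and Il2ra together. Ikzf2 was also at 1543 and 1424 CPM in CD8 T cells, so Ikzf2 does not mark regulatory cells alone. Leaving such cells out of the full set of members kept 42 and 78 cells. The median log2 library ratio of the helper list was then 0.14 over 9 measured genes, against -0.37 over 19 in the full set, so the medians cover different genes.

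**Figure D5:**
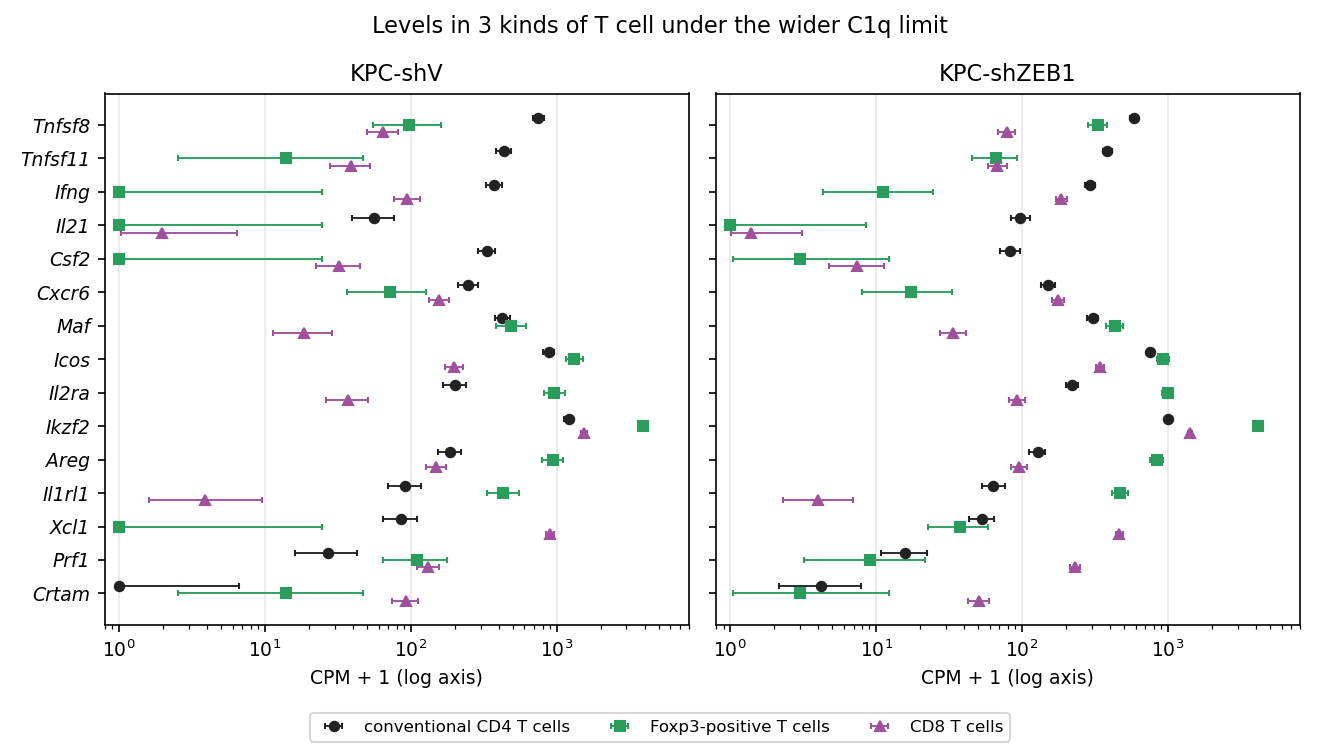
Levels in CPM with 1 added on a log axis of 15 genes in conventional CD4, Foxp3-positive and CD8 T cells under the wider C1q limit, with lines for exact 95% intervals, in 1 panel per library. Tnfsf11, Ifng, Il21 and Csf2 lie highest in conventional CD4 cells, Ikzf2, Il2ra, Areg and Il1rl1 highest in Foxp3-positive cells, and Xcl1, Prf1 and Crtam highest in CD8 cells, in both libraries.

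CD8 T cells of the wider gate, 103 and 337 cells with a median of 8503 and 6117 UMIs, gave a second comparison, in which 162 of 9328 genes (1.74%) were higher in CD4 members in both libraries and 95 (1.02%) lower. Of the helper list 5 of 21 were higher and 1 lower, with a median log2 ratio of 0.46. Tnfsf8 was 11.8-fold (9.12 to 15.6) and 7.58-fold (6.53 to 8.84) higher, and Tnfsf11 11.4-fold (8.16 to 16.4) and 5.75-fold (4.87 to 6.82). Csf2 was 10.6-fold (7.32 to 16) and 12.7-fold (7.69 to 22.4) higher, but only 9 and 26 CD4 members held it. In the library labelled KPC-shV 1 cell held 114 UMIs of Csf2, which the interval does not cover. Maf was 24.2-fold (15 to 41.4) and 9.26-fold (7.38 to 11.8) higher. Il21 was read once in CD8 T cells of each library. Ifng, which both types make, was 3.97-fold (3.13 to 5.09) and 1.58-fold (1.4 to 1.79) higher in CD4 members. The second ratio leaned on 1 CD4 member of 41795 UMIs, which held 158 UMIs of Ifng, and its interval does not cover this.

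The cytotoxic list went to CD8 T cells, with 6 of 8 genes at least 2-fold lower in members and a median log2 ratio of -1.50. Prf1, perforin, was at 26 and 14.8 CPM in members and 131 and 230 CPM in CD8 T cells, and Gzmb, granzyme B, at 27.5 and 27 CPM against 298 and 140 CPM. Xcl1, a chemokine that draws cross-presenting dendritic cells, was at 84 and 51.9 CPM against 898 and 463 CPM. Tbx21 lay close in both, at 0.955-fold (0.722 to 1.26) and 0.77-fold (0.639 to 0.925).

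Finally, the members of both libraries were compared. Over all members 373 of 7335 genes (5.09%) were at least 2-fold higher in the library labelled KPC-shZEB1 and 138 (1.88%) at least 2-fold lower. In the T receptor gene members it was 87 of 4772 (1.82%) and 78 (1.63%), and under the wider gate 162 of 6593 (2.46%) and 63 (0.956%). Several of the 10 highest and 10 lowest genes over all members had most of their UMIs in barcodes under the T receptor minimum. Pi16, Cilp and Saa3, genes of fibroblasts and the acute phase, were higher at 0 and 58.9 CPM, 4.73 and 151 CPM, and 55.8 and 1062 CPM. H19, an imprinted RNA of tumour cells, was lower at 130 and 0.647 CPM. In the T receptor gene members Pi16 held 0 and 2 UMIs, Cilp 4 and 1, Saa3 34 and 81, and H19 3 and 1. Il4 and Try4 were also among the 10 highest, and there 137 of 141 and 72 of 101 UMIs lay in the T receptor gene members.

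Among the T receptor gene members the pancreatic enzyme genes Try4 and Ctrb1 were higher, at 3.3 and 88.8 CPM and at 11.5 and 162 CPM. Both also stood higher in gated granulocytes of that library, at 5.69 and 95.3 CPM for Try4 and 63.5 and 187 CPM for Ctrb1. That gate kept only granulocytes under the C1q limit of the members, which 21.7% and 65.5% of granulocytes reached. Levels in the granulocytes it left out were not tested. The macrophage gene Apoe behaved likewise, at 280 and 1080 CPM in members and 410 and 1293 CPM in granulocytes. Ccl3, a chemokine of myeloid and T cells, was lower, at 897 and 189 CPM, and was at 6767 and 3962 CPM in granulocytes and 529 and 288 CPM in B cells. The part of free RNA in these differences was not tested. Ctrb1, Apoe and Ccl3 were picked out after their values were seen.

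Genes of naive and recirculating T cells leaned higher in the library labelled KPC-shZEB1. Of 11 measured genes, 9 had a ratio above 1 over all members, 8 in the T receptor gene members and 9 under the wider gate, and none reached 2-fold. The median log2 ratio was 0.28, 0.28 and 0.40, against -0.01, 0.02 and 0.02 over all genes. In the T receptor gene members Ccr7 was at 95.6 CPM (72.6 to 124) and 143 CPM (118 to 172), and Lef1 at 341 CPM (296 to 391) and 491 CPM (443 to 543). Bach2, a repressor of effector genes, was at 864 and 1134 CPM and Satb1 at 1312 and 1589 CPM. Tcf7 and Klf2 did not join them, at 0.918-fold (0.719 to 1.17) and 0.702-fold (0.562 to 0.878). Under the wider gate the list's median was 0.33 in CD8 T cells, and it was -0.07 in B cells over 8 measured genes. Ccr7 was also higher in granulocytes of the library labelled KPC-shZEB1, at a log2 ratio of 2.44 over 76 UMIs. These granulocytes, like the B cells, were gated under the C1q limit of the members. The part of free RNA in the Ccr7 difference was not tested.

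Genes of the Th1 list leaned lower. The list had 10 of 11 genes below 1 over all members, 9 of 11 in the T receptor gene members and 11 of 12 under the wider gate, with medians of -0.36, -0.27 and -0.31. Tbx21 was at 124 CPM (97.2 to 155) and 71.1 CPM (53.7 to 92.3), and Cxcr6, of the migration receptor list, at 227 CPM (191 to 269) and 124 CPM (101 to 152). The migration receptor list as a whole had medians of -0.08, 0.04 and -0.18. After thinning to 1000 UMIs, Tbx21 was read in 11.5% and 5.6% of cells and Cxcr6 in 20.8% and 11.2%. Ifng in the T receptor gene members was the named exception at 1.51-fold (1.26 to 1.82), and there 1 cell held 158 of 356 UMIs. The inhibitory receptor list had medians of -0.37, -0.39 and -0.34 in the same 3 sets and 0.20 in CD8 T cells. Nt5e, the adenosine-producing enzyme CD73, was at 374 and 184 CPM, and Ctla4, which competes for CD28 ligands, at 667 and 492 CPM. Cells with at least 2 UMIs of Ikzf2 and Il2ra were 62 of 96 and 61 of 125 T receptor gene members. The Th1 and inhibitory lists were not read without such cells, so the part of this unequal share was not tested.

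The activation list had medians of -0.02, -0.08 and -0.04. Over all members its median was 0.31 without cells with 2 or more UMIs of Ikzf2 and Il2ra, of which Il2ra is on the list, and -0.28 without the deepest 5% of members. Icos had a ratio of 0.945 (0.84 to 1.06). Tnfsf8 and Slamf1 also had ratios in the T receptor gene members whose intervals hold 1, at 0.88 (0.77 to 1.01) and 1.06 (0.748 to 1.52), while Maf was 0.657-fold (0.546 to 0.791). The helper list had medians of -0.37, -0.29 and -0.29. Cell cycle genes changed sign with the set, with medians of -0.24, 0.65 and 0.05, and Mki67, a proliferation marker, was at 64.3 and 170 CPM in the T receptor gene members. At least 2 UMIs of Mki67 and Top2a were held by 12 of 96 and 21 of 125 of these cells, at medians of 7411 and 9249 UMIs, and by 12 of 105 and 39 of 322 cells of the wider gate. The follicular helper list, of cells that help B cells, had medians of 0.18, 0.24 and 0.10.

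The interferon response list depended on the set of cells. Over all members 4 of 10 measured genes were at least 2-fold higher, with a median log2 ratio of 0.52. Gbp4, another guanylate-binding GTPase, was at 18.9 and 68.6 CPM over all members. Of its 20 and 106 UMIs, 1 and 72 lay in barcodes under the T receptor minimum. Under the wider gate 1 of 9 was at least 2-fold higher, with a median of 0.12. Among 9 measured genes only Gbp2, a guanylate-binding GTPase induced by interferon, was at least 2-fold higher in the T receptor gene members, and the list's median of -0.01 lay near the 0.02 of all genes there. Gbp2 was at 49.4 CPM (33.4 to 70.6) and 112 CPM (89.6 to 138), a ratio of 2.26 (1.48 to 3.54). It was read in 21.9% and 41.6% of cells. Gbp2 was also higher in the library labelled KPC-shZEB1 in other cell types. CD8 T cells of the wider gate had it at 49.4 and 101 CPM, and Foxp3-positive cells of that gate at 64.1 and 180 CPM. B cells had it at 53.6 and 261 CPM and granulocytes at 276 and 632 CPM. These B cells and granulocytes were gated under the stricter C1q limit of the members. Its promoter is shown because Gbp2 was the list's only such gene. The 250 bases upstream of its start, as RefSeq gives it on the plus strand of GRCm38, chr3:142620413-142620662, hold, in capitals, an interferon-stimulated response element, read as a pair of TTTC with 2 bases between.
Gbp2: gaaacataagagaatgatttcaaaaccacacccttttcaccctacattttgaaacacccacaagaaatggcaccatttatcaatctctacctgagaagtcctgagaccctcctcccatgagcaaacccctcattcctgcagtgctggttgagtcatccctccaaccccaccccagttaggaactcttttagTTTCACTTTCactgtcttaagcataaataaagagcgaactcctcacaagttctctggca
This motif, searched on both strands, was in 2.98% of 32851 windows of this length, and no TTC followed by GAA with 3 bases between was found in the Gbp2 window. A match is a description of the letters alone.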

How the data were processed

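The authors deposited raw counts of UMIs per gene and barcode for 2 libraries, made with Cell Ranger 7.0.1 against mm10 per the labels, before any filter of the study. Following the study's methods, a barcode needed 500 genes, between 1000 and 60000 UMIs and no more than 15% of UMIs from mitochondrial genes. The libraries held 12594 and 13271 barcodes with 130941086 and 143461224 UMIs. The members and gene lists were chosen with earlier results of these data known. UMIs were summed per gene, library and cell set and given as CPM with exact Poisson intervals, shares with exact Clopper-Pearson intervals and ratios with exact intervals given the summed count (scipy 1.17.1). A count of 0 was set to 3 UMIs for a bound. With 1 library per group no test was made. Log2 ratios had 1 CPM added, and genes needed 50 summed UMIs. For the comparisons within libraries the ratio nearer to 1 of both libraries was taken, as 0 where they differed in direction. PCR duplicates are collapsed by UMI, and intervals and floors cover counting error only.

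Named genes were those of the fixed lists and, for each comparison by the rule as given, the 10 largest and 10 smallest log2 ratios. Doublets were scored with Scrublet (scanpy 1.11.5), where the study used DoubletFinder. A score above 0.2 marked 9 and 0 members, against 2.69% and 2.76% of kept cells, and marked cells were left in. The libraries shared 46 barcodes, of which 0 and 1 were members. The ratio step was tested on simulated counts. Some genes are not reported here.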

Additional observations from a re-analysis of the deposited data

How the results depend on the processing

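No paired analysis was possible because each group was 1 library. A share ratio counted as kept inside its reported 95% interval, a count of genes within 1.5 times the reported count, and a list median where it moved by no more than the log2 distance from the middle to the end of the 95% interval of the list's summed UMI ratio. By these limits 65 of 112 alternatives kept their value, 45 moved and 2 reversed. The T receptor minimum and the wider gate were chosen after seeing the data. The values reported over all members were share ratios of 1.29 (kept cells), 0.467 (CD3-positive cells) and 0.882 (outside granulocytes), 373 and 138 genes higher and lower between libraries, 886 and 213 genes higher and lower than in Foxp3-positive T cells, and list medians of 0.28 (naive), -0.02 (activation) and -0.37 (helper). The causes of the changes below were not tested.

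With the wider gate the share ratios were 2.89, 1.04 (reversed) and 1.97, the library counts 162 and 63, the counts against Foxp3-positive cells 176 and 139, the naive median 0.40 and the helper median -0.29. With T receptor gene members the counts were 87 and 78, and 210 and 97, the activation median -0.0801 and the helper median -0.29. Without members with 2 or more UMIs of Ikzf2 and Il2ra the share ratios were 1.75, 0.631 and 1.19, and the naive, activation and helper medians 0.35, 0.31 and 0.14, the last reversed. With at least 2 CD3 UMIs, 155 genes were higher between libraries, 292 and 98 higher and lower than in Foxp3-positive cells, and the activation median was -0.0766. Without Scrublet scores above 0.2 the naive and helper medians were 0.14 and -0.27. Where a Cd4 UMI was required the naive median was 0.16. With looser cell filters the activation median was -0.0926. With means over cells the naive and activation medians were 0.36 and -0.0866. Without dividing members the naive median was 0.54 and 482 genes were higher than in Foxp3-positive cells. Without the deepest 5% of members 88 genes were lower between libraries, 589 higher than in Foxp3-positive cells, and the activation and helper medians were -0.28 and -0.54. With 10 CPM added 77 genes were lower. With a minimum of 200 UMIs the counts were 119 and 36, and 311 and 70, and the naive median 0.20. With a minimum of 1 UMI they were 2142 and 1071, and 3094 and 461.

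With 107 and 147 members, a cytokine read in fewer than 10 cells rests on those cells, and no value separates the hairpin from the mouse.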
